A study of Mus musculus with 6 samples.

Results

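The CXC and CX3C chemokine genes Cxcl1, Cxcl2, Cxcl5, Cxcl9, Cxcl10, Cxcl11, Cxcl14, Cxcl16 and Cx3cl1 were followed on arrays that set stimulated against resting RAW 264.7 cells, an established mouse macrophage line of BALB/c origin. The members were every probe whose platform gene symbol is 1 of these 9 names, which gave 9 of the 10698 genes named by a single symbol and 17 of the 16281 probes. Treated cells had received lipopolysaccharide (LPS, the outer membrane glycolipid of Gram-negative bacteria) at 100 ng/ml together with LPS-binding protein (LBP, the serum protein that hands LPS to its receptors) at 100 pM for 48 h, and the comparison cells were left untreated for 48 h. The same line without genetic change was used in both groups, and the labels list no arm with LPS alone or LBP alone. RNA of both groups was hybridised together on each of 6 two-colour arrays, 3 with the treated RNA in the red dye Cy5 and 3 with it in the green dye Cy3, with arrays of set 1, set 2 and set 3 in each orientation. The labels do not say whether separate cultures stand behind the 3 sets, and p-values therefore measure a spread between set means that may be technical.

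Chemokines are small secreted or membrane-bound proteins that steer leukocytes through G protein-coupled receptors. CXCL1, CXCL2 and CXCL5 act on CXCR2 and draw neutrophils, and their genes are classical NF-kB targets in macrophages. CXCL9, CXCL10 and CXCL11 act on CXCR3 and draw activated T cells and natural killer cells, and their genes respond to interferons. CXCL16 and CX3CL1 carry their chemokine domain on a mucin-like stalk in the membrane and are released by proteases, and CXCL14 is a chemokine of resting epithelia and stroma.

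Each value below is the log2 of the treated-to-untreated ratio, with the sign turned on the arrays with treated RNA in Cy3 and with the base of the logarithm, which the sources used here do not state, taken as 2. Means are given ± SD of the 3 set means (n = 3), each set mean averaging both dye orientations. An array gives a ratio and not a level, so it does not show which chemokine was most abundant. In a bulk ratio, fewer cells of a type and less RNA per cell cannot be told apart. A value of exactly 0, which a measured ratio hardly ever takes, was treated as missing, and such a value is called listed at 0. Between 7.97% and 17.8% of the probes were listed at 0 on an array. A probe was tested where all 6 arrays held a value, as 12724 probes did, and 11 of the 17 chemokine probes were among them, at least 1 for each of the 9 genes. Of the other 6, 4 had 1 to 5 values and 2 were listed at 0 on all arrays.

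After 48 h, Cxcl2, Cxcl11, Cxcl10 and Cxcl16 were higher in treated cells, and the tested probes of Cxcl1, Cxcl5, Cxcl9, Cxcl14 and Cx3cl1 did not pass. Cxcl2 rose 8.54-fold on its tested probe, the 2 probes of Cxcl10 rose 5.10-fold and 4.08-fold, and Cxcl16 rose 1.31-fold. Cxcl11 rose 8.02-fold on its tested probe, while its other probe, with a value missing, stood at 2.83-fold over the 2 sets that held both orientations and at 2.66-fold with zeros kept as values. Thus 5 of 11 tested chemokine probes rose and 0 fell (limma, adjusted p under 0.05; 0 lower also at an unadjusted p under 0.05), against 14.8% of all tested probes higher and 12.2% lower. With zeros kept as values, which let all 17 probes be tested, 5 rose and 0 fell, against 5.55% and 3.1% of all probes. Cxcl16 was then lost and the second Cxcl11 probe gained. A probe with values on all 6 arrays, such as that of Cxcl16, has the same ratios and mean in that setting. Only the fit over all probes differs for it. A call that such a probe loses or gains there therefore does not show how zeros of its own are read. The median over the 11 probes was 0.10 and that over all 12724 tested probes was -0.01. All 6 arrays gave a ratio above 0 for 5 of the 11, the same 5 that rose, whereas 16.1% of all tested probes had 6 ratios above 0. No tested chemokine probe lay between 0.39 and 2.03, with 4 at 2.03 or more and the remaining 7 between -0.31 and 0.39.

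**Figure D1:**
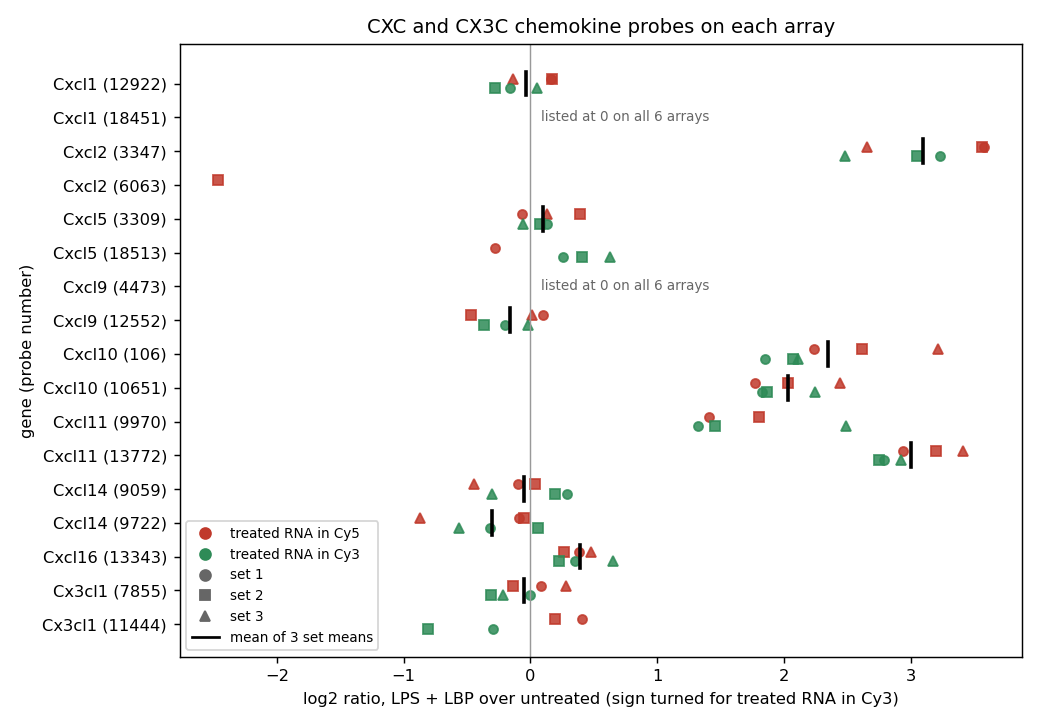
Log2 ratio of treated over untreated cells (x axis) for the 17 chemokine probes (y axis, gene and probe number). Each point is 1 array, coloured by dye orientation and shaped by set, and the black bar is the mean of the 3 set means for the 11 tested probes; Cxcl2 (3347), Cxcl10 and Cxcl11 lie above 1 on every array with a value.

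Among the CXCR2 ligands, only Cxcl2 gave a called probe. Cxcl2, also known as MIP-2, was read by the probe numbered 3347 at 3.58, 3.56 and 2.66 on the arrays with treated RNA in Cy5 (the Cy5 arrays) and at 3.23, 3.05 and 2.48 on those with treated RNA in Cy3 (the Cy3 arrays), each in the order of set 1 to set 3. All 6 ratios were far above 0, with both arrays of set 3 below the other 4. The mean was 3.09 ± 0.46 (95% interval 2.74 to 3.45; limma, adjusted p = 3.48e-06), and 0.322% of all tested probes had a higher mean. The other Cxcl2 probe, numbered 6063, had no value on 5 arrays, all listed at 0, and gave -2.47 on the array of set 2 with treated RNA in Cy5, opposite in sign to the first probe on that array. That array alone held a value for 146 probes of the whole platform, against 7 to 20 such probes on each of the other arrays, and the ratio as deposited was below 0 for 86 of the 146. With 1 value, probe 6063 was not tested, and its reading is a description of that array.

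Cxcl1, also known as KC, lies next to Cxcl2 on chromosome 5 and encodes a close relative of it. Its probe 12922 read 0.16, 0.17 and -0.14 on the Cy5 arrays and -0.16, -0.28 and 0.05 on the Cy3 arrays. The readings of each set lay on opposite sides of 0 in the 2 orientations, and their means cancelled to -0.03 ± 0.03 (95% interval -0.22 to 0.16; limma, adjusted p = 0.815). The SD and the interval are computed from those cancelled means and understate the spread of the single readings. The second probe of Cxcl1 was listed at 0 on all 6 arrays. The highest single reading of the tested Cxcl1 probe was 0.17 and the lowest of Cxcl2 (3347) was 2.48. These readings come from different probes, whose signal over background could not be examined.

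Cxcl5, known as LIX in the mouse, had a tested probe (3309) at -0.07, 0.39 and 0.13 on the Cy5 arrays and at 0.13, 0.07 and -0.06 on the Cy3 arrays. Its mean of 0.10 ± 0.11 did not pass (95% interval -0.10 to 0.30; limma, adjusted p = 0.457). The other Cxcl5 probe (18513) read -0.28 on the 1 array with treated RNA in Cy5 that held a value, and 0.26, 0.41 and 0.63 on the 3 with treated RNA in Cy3. The sign followed the dye orientation on the 4 arrays. On the 3 arrays with treated RNA in Cy3 alone its mean was 0.43 and passed (limma, adjusted p = 0.0258), a value in which a dye effect does not cancel.

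The windows around the starts of Cxcl1 and Cxcl2, 250 bases before to 50 after the gene start in RefSeq (GRCm38.p6), are shown because a probe of only 1 of these neighbours rose. They were searched on both strands for an NF-kB motif, GGGNNNTTCC, whose matches stand in capitals. Cxcl1 lies at chr5:90890995-90891294, plus strand, and Cxcl2 at chr5:90903649-90903948, plus strand.
Cxcl1: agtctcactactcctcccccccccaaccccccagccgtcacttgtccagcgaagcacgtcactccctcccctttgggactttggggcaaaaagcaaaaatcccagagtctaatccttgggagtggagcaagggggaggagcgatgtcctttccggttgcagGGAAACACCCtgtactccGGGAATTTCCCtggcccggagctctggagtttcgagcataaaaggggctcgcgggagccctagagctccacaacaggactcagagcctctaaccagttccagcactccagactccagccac
Cxcl2: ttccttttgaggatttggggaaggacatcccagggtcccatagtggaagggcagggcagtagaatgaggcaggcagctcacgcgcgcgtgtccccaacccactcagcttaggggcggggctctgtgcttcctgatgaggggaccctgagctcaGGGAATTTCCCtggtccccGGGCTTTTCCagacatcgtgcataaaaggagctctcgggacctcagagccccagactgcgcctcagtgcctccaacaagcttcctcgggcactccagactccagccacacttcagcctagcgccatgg
Each window held 2 separate stretches with a match, and 1 stretch, GGGAATTTCCC, stood in both windows and matched on both strands with the matches overlapping. It began at -71 in Cxcl1 and at -97 in Cxcl2, counted from the first base of the gene as 0. The remaining match was GGAAACACCC on the minus strand of the Cxcl1 window and GGGCTTTTCC on the plus strand of the Cxcl2 window. Of 32841 promoter windows of this length, 5.56% held a match. The motif was thus present in the window of Cxcl2, which rose, and in that of Cxcl1, whose probe did not pass. A match is only a run of letters.

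Of the CXCR3 ligands, Cxcl10 and Cxcl11 rose and the tested Cxcl9 probe did not pass. Cxcl11, also known as I-TAC, was read by probe 13772 at 2.94, 3.20 and 3.41 on the Cy5 arrays and at 2.79, 2.75 and 2.92 on the Cy3 arrays. The 6 arrays lay close together, and the mean of 3.00 ± 0.15 had the lowest adjusted p of the chemokine probes (95% interval 2.79 to 3.22; limma, adjusted p = 3.01e-07). The second Cxcl11 probe, 9970, read 1.41 and 1.80 in Cy5, was listed at 0 on the third Cy5 array, and read 1.32, 1.46 and 2.49 in Cy3. It was above 0 on all 5 arrays with a value, and below probe 13772 on each of them, by 0.44 to 1.53. Over set 1 and set 2, which held both orientations, its mean was 1.50 (2.83-fold, n = 2; limma in the fit over probes with at least 2 sets, adjusted p = 1.58e-05). RefSeq annotates Cxcl11 of the C57BL/6J reference strain as a transcribed pseudogene, and the ratio says nothing on whether protein was made.

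Cxcl10, also known as IP-10, had 2 tested probes. Probe 106 read 2.23, 2.62 and 3.22 on the Cy5 arrays and 1.85, 2.07 and 2.11 on the Cy3 arrays. Its Cy5 readings were all above its Cy3 readings, and the dye effect of 0.34 did not pass (limma, adjusted p = 0.111). The mean was 2.35 ± 0.31 (95% interval 2.07 to 2.63; limma, adjusted p = 4.03e-06). Probe 10651 read 1.77, 2.03 and 2.44 on the Cy5 arrays and 1.83, 1.87 and 2.25 on the Cy3 arrays, with a mean of 2.03 ± 0.28 (limma, adjusted p = 6.88e-06). On each probe set 3 gave the highest reading of its orientation, and probe 106 was above probe 10651 on 5 of 6 arrays.

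Cxcl9, also known as MIG, is the CXCR3 ligand most tied to interferon-gamma. Probe 12552 read 0.10, -0.47 and 0.01 on the Cy5 arrays and -0.20, -0.36 and -0.02 on the Cy3 arrays. The arrays of set 2 were lowest in both orientations and those of set 3 lay at 0.01 and -0.02. The mean of -0.16 ± 0.22 did not pass (95% interval -0.40 to 0.08; limma, adjusted p = 0.311). The second Cxcl9 probe was listed at 0 on all 6 arrays. The upper bound of 0.08 lies below the lower bounds of 2.79 for Cxcl11 (13772) and of 1.77 for the lower Cxcl10 probe. These bounds belong to different probes. Without spot intensities, a Cxcl9 probe with little signal could not be told from an unchanged gene.

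Cxcl9, Cxcl10 and Cxcl11 are neighbours on chromosome 5, and the start windows of Cxcl9 and Cxcl10 are shown because the former did not pass and the latter rose. Cxcl9 lies at chr5:92328030-92328329, minus strand, and Cxcl10 at chr5:92348840-92349139, minus strand (RefSeq, GRCm38.p6). Capitals mark the NF-kB motif above and an interferon-stimulated response element (ISRE), searched as GAAANNGAAA on both strands.
Cxcl9: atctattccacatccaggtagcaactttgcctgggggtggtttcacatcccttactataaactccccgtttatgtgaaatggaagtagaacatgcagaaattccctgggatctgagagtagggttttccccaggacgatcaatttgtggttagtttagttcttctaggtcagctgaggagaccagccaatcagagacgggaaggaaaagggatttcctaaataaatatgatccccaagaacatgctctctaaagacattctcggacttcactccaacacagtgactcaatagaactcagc
Cxcl10: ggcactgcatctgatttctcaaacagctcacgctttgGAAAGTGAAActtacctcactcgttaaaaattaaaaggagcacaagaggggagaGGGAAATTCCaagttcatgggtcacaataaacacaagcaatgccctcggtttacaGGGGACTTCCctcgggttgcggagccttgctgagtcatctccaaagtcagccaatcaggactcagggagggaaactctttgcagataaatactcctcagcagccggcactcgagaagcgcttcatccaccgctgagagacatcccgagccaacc
The Cxcl10 window held the ISRE letters GAAAGTGAAA at -213 and NF-kB matches at -159 and -104, on the plus strand and not overlapping each other. Of all 32841 windows, 3.44% held the ISRE motif. The Cxcl9 window had no match to either, and none to a gamma-activated site (GAS) searched as TTCNNNGAA, which 8.30% of the windows held. No match says only that these letters are not in the window. Promoter entries were found for 6 of the 9 genes, with none for Cxcl5, Cxcl11 and Cxcl16 in the source used here. The Cxcl14 window, chr13:56296502-56296801 on the minus strand, lay inside the gene, whose first base in RefSeq is at 56296811. Its matches are therefore given without a distance to the gene start. It held an ISRE match, GAAACAGAAA, and a GAS match, TTCTGAGAA, and neither Cxcl14 probe passed. The Cx3cl1 window held no match to any of these motifs. Whether a match goes with a rise was not tested.

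Among the transmembrane chemokines, Cxcl16, the ligand of CXCR6 and a scavenger receptor for oxidised lipoprotein, rose slightly. Its only probe, 13343, read 0.39, 0.26 and 0.48 on the Cy5 arrays and 0.35, 0.22 and 0.66 on the Cy3 arrays. All 6 ratios were above 0 and the orientations overlapped, with means of 0.38 in Cy5 and 0.41 in Cy3. The mean was 0.39 ± 0.16 (95% interval 0.18 to 0.61; limma, adjusted p = 0.0169), and 11.5% of all tested probes had a higher mean. The call was lost without set 3 (mean 0.31, adjusted p = 0.0913), with zeros kept as values (adjusted p = 0.098) and on the Cy5 arrays alone (adjusted p = 0.058; all limma).

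Cx3cl1, or fractalkine, is the only CX3C chemokine and the ligand of CX3CR1. Probe 7855 read 0.08, -0.13 and 0.28 on the Cy5 arrays and -0.01, -0.31 and -0.22 on the Cy3 arrays. The readings straddled 0, and the mean of -0.05 ± 0.15 did not pass (95% interval -0.27 to 0.16; limma, adjusted p = 0.734). The second probe, 11444, read 0.41 and 0.19 in Cy5 and -0.30 and -0.80 in Cy3 and was listed at 0 on both arrays of set 3. Its sign followed the dye orientation on all 4 arrays with a value.

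Cxcl14, also known as BRAK, had 2 tested probes. Probe 9722 read -0.09, -0.05 and -0.87 on the Cy5 arrays and -0.32, 0.06 and -0.56 on the Cy3 arrays. It was below 0 on 5 of 6 arrays and lowest in set 3, and its mean of -0.31 ± 0.37 did not pass (95% interval -0.61 to 0.00; limma, adjusted p = 0.131). Probe 9059 averaged -0.05 ± 0.28, with ratios between -0.44 and 0.29 over the 6 arrays and both arrays of set 3 again lowest (limma, adjusted p = 0.777).

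**Figure D2:**
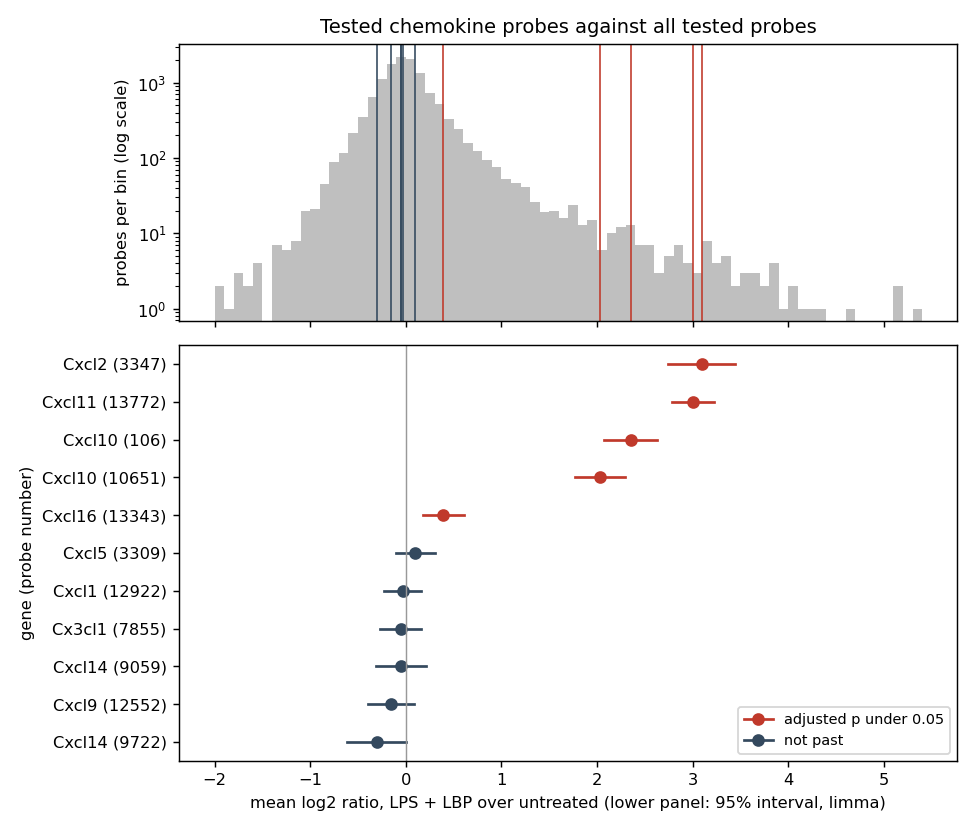
The upper panel counts all 12724 tested probes by mean log2 ratio of treated over untreated cells (x axis; y axis on a log scale) and marks the 11 chemokine probes as vertical lines. The lower panel gives each chemokine probe's mean with its 95% interval from limma, in red where adjusted p was under 0.05; the 4 highest stand in the sparse right tail and the interval of Cxcl16 lies between 0.18 and 0.61.

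In order of mean ratio the called probes ran Cxcl2, Cxcl11, Cxcl10 and Cxcl16. Cxcl2 was above Cxcl11 (13772) in set 1 and set 2 and below it in set 3, a gap of 0.09 ± 0.61 (SD over sets), so their order was within the spread. Cxcl11 (13772) was above Cxcl10 (106) in every set, by 0.65 ± 0.16. The other Cxcl11 probe (9970) turned that order: in set 1 and set 2 it differed from Cxcl10 (106) by -0.68 and -0.71 and from Cxcl10 (10651) by -0.43 and -0.32. Cxcl10 (10651) was above Cxcl16 in every set, by 1.64 ± 0.18. From Cxcl5 downward the gaps between neighbours were at most 0.15 and smaller than their SD over sets. These gaps compare ratios of different probes and were not tested.

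The dye effect, the part of the ratio that depends on which dye held the treated RNA, passed for 0.181% of all tested probes (23; limma, adjusted p under 0.05) and for none of the 11 chemokine probes. The lowest adjusted p among the chemokine probes was that of Cxcl10 probe 106. At an unadjusted p under 0.05, 3348 of the 12724 tested probes had a dye effect (limma). Probe 10504 of Cxcl13, described below, had ratios whose sign followed the dye on every array and did not pass (limma, adjusted p = 0.0977). Not passing therefore does not show that a probe had no dye effect.

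**Figure D3:**
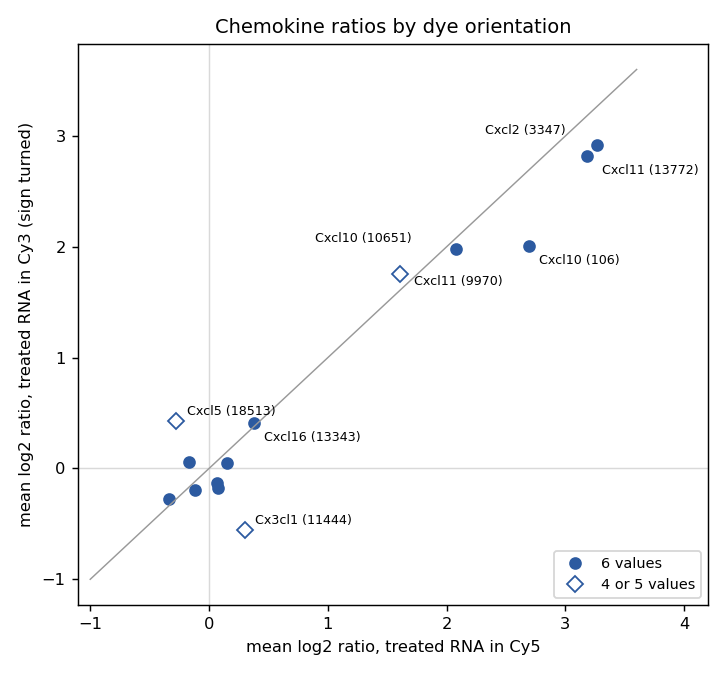
Mean log2 ratio with treated RNA in Cy5 (x axis) against the mean with treated RNA in Cy3, sign turned (y axis), for the 14 chemokine probes with values in both orientations. The grey line marks equal ratios; of the called probes Cxcl10 (106) lies farthest from it, and the open diamonds of Cxcl5 (18513) and Cx3cl1 (11444), with missing arrays, lie on opposite sides of 0 in the 2 orientations.

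Other genes of the same pathways were read from lists of other CXC chemokines, receptors, membrane proteases, interferon signalling, NF-kB signalling and mRNA stability. Against the 14.8% higher and 12.2% lower among all tested probes, 0 of 6 tested probes of the other CXC chemokines rose and 0 fell (limma; 0 also at an unadjusted p under 0.05). These 6 probes covered 4 of the 7 listed genes, and Cxcl3 and Cxcl17 had no probe with a single symbol. The highest of the 6 was Pf4, platelet factor 4, at 0.11 ± 0.10, and the lowest was a Cxcl13 probe at -0.08 ± 0.13. Probe 10504 of Cxcl13, the B cell attractant, averaged 0.09 ± 0.15 from readings of -1.19, -0.91 and -1.51 on the Cy5 arrays and 1.60, 0.76 and 1.80 on the Cy3 arrays. Its sign followed the dye on every array, so its mean near 0 averages readings of opposite sign. Both probes of Cxcl12, the ligand of CXCR4, lacked values on some arrays and were not tested.

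Of 11 tested probes of chemokine receptors, 1 rose and 2 fell, shares near the 14.8% and 12.2% of all tested probes, with a median of -0.01. Cx3cr1, the receptor of fractalkine, fell by 1.02 ± 0.24 on the log2 scale (limma, adjusted p = 2.60e-04), with readings of -1.29, -0.87 and -0.73 on the Cy5 arrays and -1.25, -1.18 and -0.83 on the Cy3 arrays. All 6 were below 0, and the second Cx3cr1 probe was listed at 0 on all arrays. Cxcr4 fell by 0.78 ± 0.16 on its tested probe (limma, adjusted p = 5.55e-04), and its second probe, with 4 values, was below 0 on each. Ackr1, an atypical receptor that binds inflammatory chemokines without signalling, rose by 0.34 ± 0.08 on its tested probe (limma, adjusted p = 0.0218). Its second probe, with 4 values, was of mixed sign, at 0.22 and 0.65 on the Cy5 arrays and 0.05 and -0.61 on the Cy3 arrays. The 3 probes of Cxcr2, between -0.17 and 0.26, and the tested probes of Cxcr3 (-0.24 ± 0.26) and Cxcr6 (-0.20 ± 0.04) did not pass. With zeros kept as values, the Cxcr4 probe kept its call (limma, adjusted p = 0.0450), and those of Cx3cr1 (adjusted p = 0.0517) and Ackr1 (adjusted p = 0.0560) did not pass.

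Among the proteases and their partners that act on membrane-bound proteins, 2 of 5 tested probes rose and 0 fell. Of all tested probes, 14.8% rose and 12.2% fell. Adam8 rose by 1.27 ± 0.06 (2.42-fold; limma, adjusted p = 1.81e-05). Adam17, which sheds fractalkine on stimulation, rose by 0.39 ± 0.22 on a probe and was at 0.27 ± 0.19 without passing on the other. Adam10, which sheds CXCL16 and fractalkine constitutively, stood at -0.25 ± 0.28 and -0.17 ± 0.28 without passing. Adam8 kept its call with zeros kept as values and Adam17 did not (limma, adjusted p = 0.148).

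Interferon signalling genes that act upstream of Cxcl9, Cxcl10 and Cxcl11 rose on 12 of 20 tested probes, covering 10 of 15 tested genes, and 0 fell, against 14.8% higher and 12.2% lower among all tested probes. The median of the 20 interferon signalling probes was 0.45. The interferon regulatory factor Irf7 rose by 2.83 ± 0.18 (7.10-fold; limma, adjusted p = 4.47e-07). The transcription factors Stat2 and Irf9, which take part in binding the ISRE, rose by 1.57 ± 0.11 and 0.98 ± 0.11. The kinase Jak2 rose by 1.27 ± 0.14 and 1.24 ± 0.15 on its 2 probes. Ifnb1, which encodes interferon-beta, rose by 0.59 ± 0.25 (1.50-fold; limma, adjusted p = 0.00499), Irf1 by 0.70 ± 0.16, Irf8 by 0.59 ± 0.24 and Jak1 by 0.28 ± 0.05. The interferon-alpha/beta receptor chain Ifnar1 rose on both of its probes, by 0.52 ± 0.09 and 0.41 ± 0.08, and Ifnar2 rose by 0.50 ± 0.26 on a probe and was at 0.12 ± 0.03 without passing on the other. The tested probe of Ifng, which encodes interferon-gamma, was at 0.04 ± 0.06 without passing, and the receptor chains Ifngr1 (-0.12 ± 0.17 and -0.12 ± 0.05) and Ifngr2 (0.15 ± 0.05) did not pass either. Of the 12 calls, 9 were kept with zeros kept as values and those of Ifnb1, Irf8 and Ifnar2 were lost (limma, adjusted p = 0.0989, 0.0921 and 0.136), while Tyk2 at 0.17 passed (adjusted p = 0.0417). In that setting 10 of 21 probes of the list were higher, against 5.55% of all probes.

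NF-kB signalling genes rose on 6 of 12 tested probes, covering 5 of 9 tested genes, and 0 fell. The shares of all tested probes were 14.8% higher and 12.2% lower. Bcl3, an atypical IkB protein of the nucleus, rose by 1.56 ± 0.28 (2.96-fold; limma, adjusted p = 3.11e-05). Nfkbiz, which encodes IkB-zeta, rose by 1.36 ± 0.08 and 0.36 ± 0.22 on its 2 probes, and Nfkbie, Nfkb2 and Relb rose by 0.65 ± 0.18, 0.47 ± 0.12 and 0.33 ± 0.19. The probes of Rela (-0.06 ± 0.15) and Ikbkb (-0.02 ± 0.05 and -0.19 ± 0.13) did not pass, and Nfkbia, the gene of IkB-alpha, was listed at 0 on all arrays. With zeros kept as values, Bcl3 and the Nfkbiz probe at 1.36 kept their calls, and the other 4 probes did not pass (limma, adjusted p between 0.0560 and 0.161).

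Of 7 tested probes for proteins that set the stability of chemokine mRNAs, 2 rose and 1 fell, against 14.8% and 12.2% of all tested probes. Zfp36, whose product tristetraprolin binds AU-rich elements and promotes decay of mRNAs such as those of Cxcl1 and Cxcl2, rose by 2.14 ± 0.26 (4.41-fold; limma, adjusted p = 4.07e-06). Its readings were 1.93, 2.42 and 2.15 on the Cy5 arrays and 1.84, 2.38 and 2.14 on the Cy3 arrays. Its relatives differed in direction, with Zfp36l1 up by 0.40 ± 0.09 on a probe and at -0.02 ± 0.15 without passing on the other, and Zfp36l2 down to -0.36 ± 0.11 (limma, adjusted p = 0.0181). The RNA-binding protein gene Elavl1 (-0.25 ± 0.13) and the kinase gene Mapkapk2 (0.13 ± 0.17 and 0.20 ± 0.03) did not pass. With zeros kept as values Zfp36 and Zfp36l1 kept their calls and Zfp36l2 did not (limma, adjusted p = 0.0657), while the Mapkapk2 probe at 0.20 passed (adjusted p = 0.0490).

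**Figure D4:**
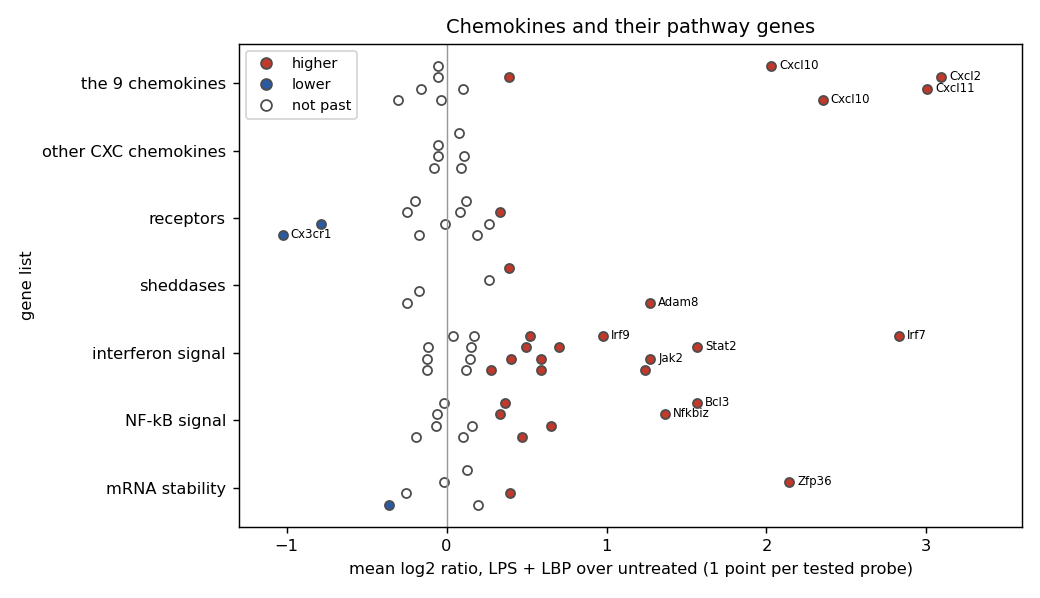
Mean log2 ratio of treated over untreated cells (x axis), 1 point per tested probe, for the 9 chemokines and the 6 lists of related genes (y axis). Filled points passed limma's adjusted p under 0.05, in red where higher and in blue where lower; points are spread vertically for legibility only, and the other CXC chemokines lie within 0.11 of 0.

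The probes nearest to the chemokines in their 6 ratios were found among the other 11058 tested probes with 1 symbol, by root mean square difference over 6 arrays. Nearest to Cxcl2 (3347) were the Schlafen gene Slfn1 (0.25), the G protein regulator Rgs1 (0.26) and the cytokine gene Il1a (0.36). Nearest to Cxcl10 probe 106 were the lipocalin Apod (0.18), the GTPase gene Gbp2 (0.22) and the kinase gene Plk2 (0.24). Nearest to Cxcl10 probe 10651 were the interferon-inducible GTPase gene Igtp (0.11), the polyamine enzyme Odc1 (0.17) and the amino acid oxidase Il4i1 (0.18). The means of these 9 probes lay between 1.92 and 3.15, which follows from picking probes with ratios near those of Cxcl2 and Cxcl10.

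The direction of the ratio was taken as Cy5 over Cy3, with treated RNA in Cy5 on 3 arrays and in Cy3 on the other 3. The turned ratios were read against Nos2, Tnf, Il6 and Il1b, genes known to respond to LPS. Each of their probes was above 0 on all 6 arrays. After turning, the correlation across probes was 0.73 to 0.81 within an orientation and 0.44 to 0.69 between orientations. As ratios carry no level, the macrophage identity of the cells could not be read from marker levels. Of 5 tested macrophage marker probes, Adgre1 (0.94 ± 0.09) and Fcgr1 (1.96 ± 0.15) rose, Csf1r fell by 0.53 ± 0.22, and Cd68 and Mrc1 lay within 0.02 of 0. Of 24 tested marker probes of other cell types, 3 rose (Dcn by 2.68 ± 0.95, Cd79a by 0.63 ± 0.11 and S100a9 by 0.32 ± 0.11, whose other probe did not pass) and 1 fell (S100a8, by 0.83 ± 0.22), against 14.8% and 12.2% of all tested probes. A second S100a8 probe with 5 values, not tested, read above 0 on 4 arrays (0.34, 0.29, 0.67 and 0.16) and at -0.03 on the other. With zeros kept as values, Cd79a alone of these 4 passed (limma, adjusted p between 0.0581 and 0.0789 for the others), and of the macrophage marker calls that of Csf1r was lost (adjusted p = 0.0977). Their part in the chemokine results was not tested.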

How the data were processed

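Two-colour arrays set treated against untreated RAW 264.7 RNA, 6 arrays in all. The authors deposited 1 log2 ratio (base taken as 2) of Cy5 over Cy3 per probe and array. How the authors corrected background and dyes, scanned and filtered spots is not given in the sources used here. Spot intensities were not used here, so the number of arrays limits the precision. Probes were named from the platform annotation, in which 13738 probes had 1 gene symbol, and all 17 chemokine probes matched the RefSeq gene table by gene ID. Exact zeros were set to missing, the sign was turned where treated RNA was in Cy3, the 2 orientations of each set were averaged, and the resulting 3 values were compared with 0 by limma 3.58.1 in R 4.3.3 (lmFit, eBayes, two-sided), with Benjamini-Hochberg adjustment over all 12724 tested probes. Adjusted p under 0.05 counted as changed. Intervals are limma's moderated 95% intervals. The dye effect was tested likewise on ratios that had not been turned. The procedure was tested on simulated ratios. The members, gene lists and tests were chosen with earlier results of these data known. Named genes were every chemokine probe, and from each list the called probes and the highest and lowest tested probes; other list probes, the motifs and the neighbours' gaps were chosen after their values were seen. Alternatives are given in the closing section.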

Additional observations from a re-analysis of the deposited data

Results flagged for a closer look

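Cx3cl1 probe 11444 averaged 0.30 on the 2 arrays with treated RNA in Cy5 that held a value and -0.55 on the 2 with treated RNA in Cy3, so every array of an orientation lay on its own side of 0. The difference between the orientations was not tested, since both arrays of set 3 were listed at 0. Groups of 3 arrays were too small for a search for single outlying arrays.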

How the results depend on the processing

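Cxcl2 (3347), Cxcl11 (13772) and both Cxcl10 probes passed under every alternative run, with adjusted p from 1.67e-13 to 0.0325 (limma) and means between 1.87 and 3.36. Cxcl16 lost its call in the 3 settings given in the report. With zeros kept as values its ratios were unchanged, and only the fit over all probes differed. In all, 129 of 132 comparisons of a tested chemokine probe with an alternative kept the call, and no called probe changed sign. The count of chemokine probes higher was 5 without any 1 of the sets (without set 3, the second Cxcl11 probe in place of Cxcl16), 4 on Cy5 arrays alone, 7 of 13 on Cy3 arrays alone and 6 of 13 where 2 sets sufficed. The counts of all tested probes higher were 1261 of 13046 on Cy5 arrays, 2174 of 13831 on Cy3 arrays and 1965 of 14524 where 2 sets sufficed. Without set 1, set 2 or set 3 they were 1541 of 12861, 1379 of 12907 and 1698 of 14204. Over all probes, keeping zeros as values moved the calls to 903 higher and 504 lower of 16281 and those of the pathway lists from 23 higher and 3 lower to 16 and 1, and 23 dye calls became 0 (3922 at an unadjusted p under 0.05, limma). Without a set, 851 to 1151 probes were lower, the fewest without set 2, and 0 to 37 had a dye effect, with 0 and 1885 at an unadjusted p under 0.05 without set 1. The cause was not tested. Sets are replicates in the analysis; with single arrays, a dye term and no replicate block, 2242 probes were higher and 2051 lower, 25 and 4 in the pathway lists, and the chemokine calls stayed at 5 and 0. Deviations of same-numbered arrays correlated at 0.53, 0.08 and 0.17 for set 1, 2 and 3. The highest correlation of each Cy5 array with a differently numbered Cy3 array was -0.21, 0.02 and 0.13. For each Cy5 array the same-numbered Cy3 array was thus nearest, by a small margin in set 2 and set 3. The comparison starting from each Cy3 array was not made. In the turned ratios, the Cy3 array of set 2 correlated at 0.46 with the Cy5 array of set 2 and at 0.60 with that of set 3. The Cy5 array of set 2 correlated at 0.51 with the Cy3 array of set 3. Whether the numbers pair the arrays was not tested. Signal over background could not be examined.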
